A study of Homo sapiens with 6 samples.

Results

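The genes described here encode 9 peptidases, most of them anchored in the plasma membrane, that cut neuropeptides and other small peptides: MME, FAP, DPP4, ANPEP, ENPEP, ECE1, ECE2, MEP1A and MEP1B. They were taken by name from the 18404 genes measured on the arrays, and all 9 were measured, each by 1 probe set (a group of probes read together as 1 value). The members were chosen by name with the measured log2 differences between H69M and H69 already known, so those differences are given as a description, with no test of the members. RNA came from H69, an established human small cell lung cancer line of the classic neuroendocrine kind, and from H69M, labelled as a small cell lung cancer line with no account of how it was obtained. There were 3 arrays of each line and no treatment. The labels do not say whether the 3 arrays of a line came from separate cultures, so the p-values given for other genes reflect differences among arrays that could be purely technical.

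Membrane peptidases of this kind act outside the cell, where they shorten or trim a peptide before it reaches its receptor, or finish a precursor so that it can act. Neprilysin, the product of MME, is a zinc enzyme that destroys bombesin-like peptides, substance P, enkephalins and endothelins. Small cell lung cancer is known for secreting gastrin-releasing peptide, the human bombesin, and for growing in response to it, and neprilysin is known as a brake on that loop. Dipeptidyl peptidase 4 and fibroblast activation protein belong to another, serine-based family that cuts after proline, and meprins are zinc enzymes best known from the brush borders of kidney and gut.

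The 9 genes did not move as 1 group. MME was 73.3-fold higher in H69M, FAP 15.1-fold and DPP4 2.55-fold, and MEP1B was 14.7-fold lower. ANPEP, ENPEP and ECE1 were higher by less than 2-fold, and the arrays of the lines overlapped for ECE2 and MEP1A. In the fit over all genes 6 members were called higher in H69M, where 21.0% of all genes were, and 1 lower, where 23.2% were. Counting only differences of at least 2-fold, 3 members were called higher and 1 lower, where 5.56% and 2.72% of all genes were. Every H69M array was above every H69 array for 6 members and below for 1, against 25.8% and 30.0% of all genes. The same contrast chose the members, so nothing is read from these counts. The median log2 difference was 0.89 over the members and -0.041 over all genes.

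Array medians over all 32321 probe sets ran from 6.43 to 6.48 (log2). Within a line, arrays correlated across genes at 0.995 to 0.998 and those of different lines at 0.938 to 0.950. Called genes numbered 3866 higher and 4274 lower in H69M by limma at an adjusted p of 0.05. With each array centred on its own median over the 18404 genes they split into 3110 higher and 6827 lower, so small differences have no settled direction. Of 10 measured neuroendocrine markers, 7 fell in H69M and 0 rose by limma, adjusted or at an unadjusted p of 0.05, though 1 rose with the eBayes trend. Of these markers NCAM1 still read 9.70 and CHGB 9.80 in H69M. Of 12 fibroblast markers, 9 rose and 0 fell by limma, also at an unadjusted p of 0.05, as taken up again beside FAP.

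**Figure D1:**
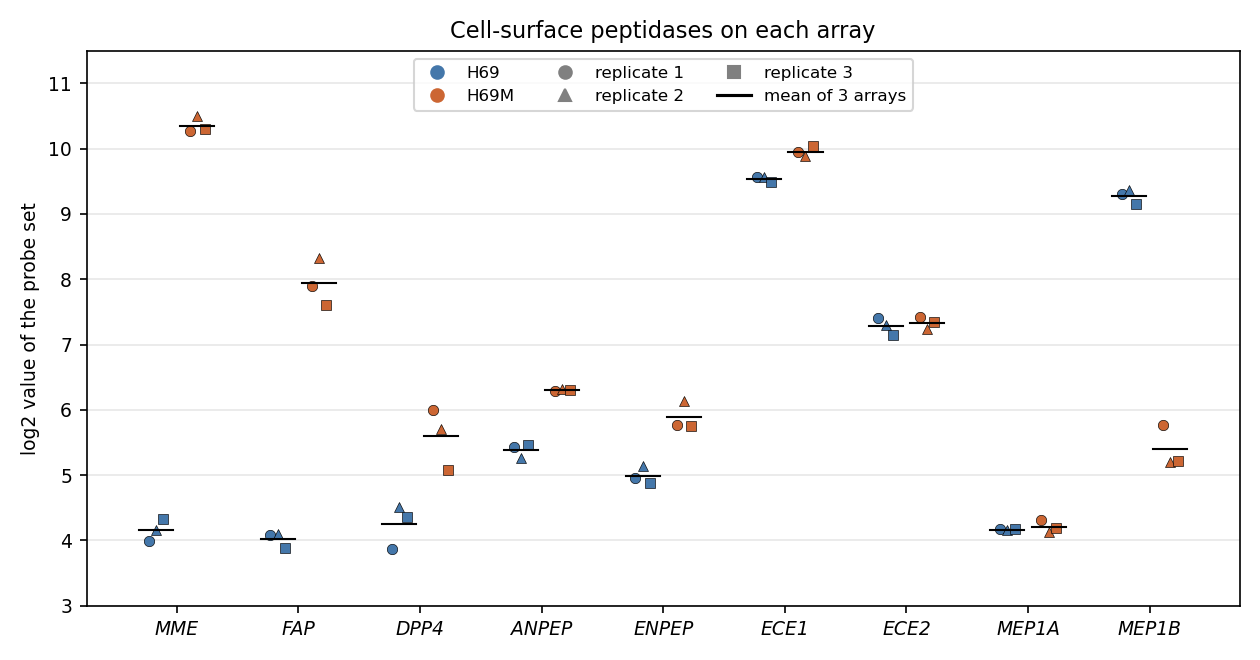
Log2 value of the probe set of each of the 9 peptidase genes on each array of H69 (blue) and H69M (orange), with marker shapes for the replicates and a line for the mean of 3 arrays. MME, FAP and DPP4 sit higher in H69M and MEP1B sits lower, while the points of ECE2 and MEP1A overlap between the lines.

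Upstream sequence is shown for MME, DPP4 and MEP1B, the members with the largest differences among the 6 of 9 that have an entry in the RefSeq promoter table (GRCh38.p14). Each line holds the 250 bases before a RefSeq transcription start, 5′ to 3′ on the gene's strand. For MME the most upstream of its 4 starts is used (chr3:155079422-155079671, plus strand). The window of DPP4 is chr2:162074216-162074465 on the minus strand and that of MEP1B is chr18:32189789-32190038 on the plus strand. Capitals mark matches to 4 short motifs, searched on both strands: the GC box GGGCGG, the TATA box TATAAA, the AP-1 motif TGANTCA and the ZEB-type E-box CACCTG.
MME: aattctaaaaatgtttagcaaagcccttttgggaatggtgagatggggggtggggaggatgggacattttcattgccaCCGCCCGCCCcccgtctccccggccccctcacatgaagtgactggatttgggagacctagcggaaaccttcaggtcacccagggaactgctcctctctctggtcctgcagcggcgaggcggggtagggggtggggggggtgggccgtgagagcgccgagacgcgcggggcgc
DPP4: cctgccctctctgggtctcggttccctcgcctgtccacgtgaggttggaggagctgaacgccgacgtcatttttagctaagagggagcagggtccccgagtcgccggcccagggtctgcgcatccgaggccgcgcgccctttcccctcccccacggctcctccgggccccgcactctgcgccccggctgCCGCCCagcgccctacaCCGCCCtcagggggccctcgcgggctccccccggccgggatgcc
MEP1B: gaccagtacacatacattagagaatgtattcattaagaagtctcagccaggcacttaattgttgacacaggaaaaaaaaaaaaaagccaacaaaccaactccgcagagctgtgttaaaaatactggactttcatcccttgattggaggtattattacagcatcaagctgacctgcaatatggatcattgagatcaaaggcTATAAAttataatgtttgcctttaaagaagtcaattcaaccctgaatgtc
The MME window held 2 GC box matches, starting 172 and 168 bases before the start and overlapping each other. DPP4 held 2 as well, at 61 and 44 bases. MEP1B held none, and had 1 TATA box match 50 bases before its start. A GC box match is in 42.6% of the 34788 distinct windows of this length in the table and a TATA box match in 10.8%. The AP-1 motif (6.59% of windows) and the E-box (17.5%) had no match in these 3 windows, which says only that those letters are not there, and an E-box match does lie in the windows of 2 other MME starts.

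Base composition also differed between the windows. G and C made up 63.2% of the MME window and 73.6% of that of DPP4, against a median of 58.0% over all windows, and 36.4% of that of MEP1B. The MEP1B window had 1 CpG and the MME and DPP4 windows had 15 and 26, where the median was 11. Among the other members, the outermost windows of ANPEP and ECE1 were also rich in G and C (74.0% and 76.8%). The ENPEP window had 52.0% and 2 TATA box matches.

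MME encodes neprilysin, also known as the leukocyte antigen CD10. Its probe set (8083494) read 3.99, 4.16 and 4.33 on the H69 arrays and 10.27, 10.50 and 10.30 on the H69M arrays (log2). All 3 H69 values lie below 5.58, the 25th percentile of gene means on these arrays, and all 3 H69M values lie above 8.67, the 75th. The means were 4.16 ± 0.17 and 10.36 ± 0.13 (SD, n = 3), a log2 difference of 6.20 with a standard error of 0.10. The nearest arrays of the lines were still 5.94 apart. A dim value on these arrays is not a measure of absence.

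ECE1 and ECE2 belong to the same zinc peptidase family as MME and are named for turning big endothelin into active endothelin. ECE1 (probe set 7913357) read 9.56, 9.57 and 9.49 in H69 and 9.94, 9.88 and 10.04 in H69M. It was bright on every array, and the lines did not overlap, though they were only 0.31 apart at the nearest. The log2 difference was 0.42 with a standard error of 0.064, or 0.33 with each array centred on its median. ECE2, which works mainly inside the secretory pathway, read 7.41, 7.29 and 7.14 in H69 and 7.42, 7.24 and 7.35 in H69M (probe set 8084397). These ranges overlap, and the log2 difference of 0.055 with a standard error of 0.086 became -0.0345 with each array centred. The transcripts listed for this probe set include one that RefSeq gives to the adjoining EEF1AKMT4, so the value may hold RNA of both genes.

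FAP encodes fibroblast activation protein, a surface serine peptidase of activated fibroblasts. Its probe set (8056257) read 4.08, 4.10 and 3.88 in H69 and 7.89, 8.32 and 7.60 in H69M. The lines were well apart, and the H69M arrays were spread more (SD 0.36) than those of H69 (SD 0.12). The log2 difference was 3.92 with a standard error of 0.17. Among the fibroblast markers that moved with FAP, LUM rose by 6.78, PRRX1 by 5.57 and COL1A1 by 4.83 (limma adjusted p = 2.53e-07, 2.22e-07 and 4.71e-08). PDGFRB, COL1A2, COL3A1, PDGFRA, DCN and THY1 also rose, while TCF21 (0.29), DPT (0.0084) and POSTN (0.11, limma adjusted p = 0.505) did not pass. POSTN, which encodes the matrix protein periostin, was bright in both lines, at 11.47 in H69 and 11.58 in H69M, and passed without H69M replicate 3 (0.27, limma adjusted p = 0.0128). The log2 values of the 12 markers summed to between 71.8 and 72.2 on the H69 arrays and between 101.8 and 105.9 on the H69M arrays. Whether fibroblasts had a part in the difference was not tested, and more cells of a type cannot be told apart from more RNA per cell in bulk RNA.

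DPP4, or CD26, removes dipeptides from the front end of peptides such as the incretins and the chemokine CXCL12. It was the least even member. The probe set (8056222) read 3.873, 4.513 and 4.351 in H69 and 6.003, 5.711 and 5.079 in H69M. H69M replicate 3 was the lowest of its line, 0.57 above the highest H69 array. The SDs of 0.33 in H69 and 0.47 in H69M exceeded those of 99.0% and 99.2% of genes. The log2 difference was 1.35 with a standard error of 0.25, and it ranged from 1.15 to 1.61 as single arrays were left out.

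ANPEP and ENPEP are zinc aminopeptidases, which take single residues off the front end of a peptide. ANPEP (CD13, which removes neutral residues) read 5.44, 5.26 and 5.46 in H69 and 6.29, 6.32 and 6.30 in H69M (probe set 7991335). Its H69M arrays lay closer together than those of nearly any other gene, with an SD of 0.017 that was above that of 3.00% of genes. ENPEP (aminopeptidase A, which removes acidic residues and trims angiotensin) read 4.95, 5.14 and 4.89 in H69 and 5.77, 6.14 and 5.74 in H69M (probe set 8096875). In both, every H69M array was above every H69 array. The log2 differences of 0.92 for ANPEP and 0.89 for ENPEP were 0.024 apart, with a combined standard error of 0.14.

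The meprin subunits went separate ways. MEP1B encodes the membrane-anchored beta subunit, and its probe set (8020827) read 9.31, 9.37 and 9.15 in H69 and 5.77, 5.20 and 5.22 in H69M. All H69 arrays were bright, and the H69M arrays were at least 3.38 lower, with replicate 1 the highest of them. The log2 difference was -3.88 with a standard error of 0.15. MEP1A encodes the alpha subunit, which is held at the surface by pairing with beta. It read 4.17, 4.16 and 4.17 in H69 and 4.31, 4.12 and 4.19 in H69M (probe set 8120088). These values overlap and are dim in both lines, and the log2 difference of 0.041 turned to -0.049 with each array centred.

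Ordered by log2 difference, the members ran MME, FAP, DPP4, ANPEP, ENPEP, ECE1, ECE2, MEP1A and MEP1B. MME exceeded FAP by 2.28 with a combined standard error of 0.20, and FAP exceeded DPP4 by 2.57 with 0.30. DPP4 and ANPEP were 0.44 apart with a combined standard error of 0.26, and ECE2 and MEP1A were 0.0145 apart with 0.11. The combined standard errors treat the genes of a pair as independent, though they were read on the same arrays. The order is thus a description that was not tested, and members this close have no settled order.

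**Figure D2:**
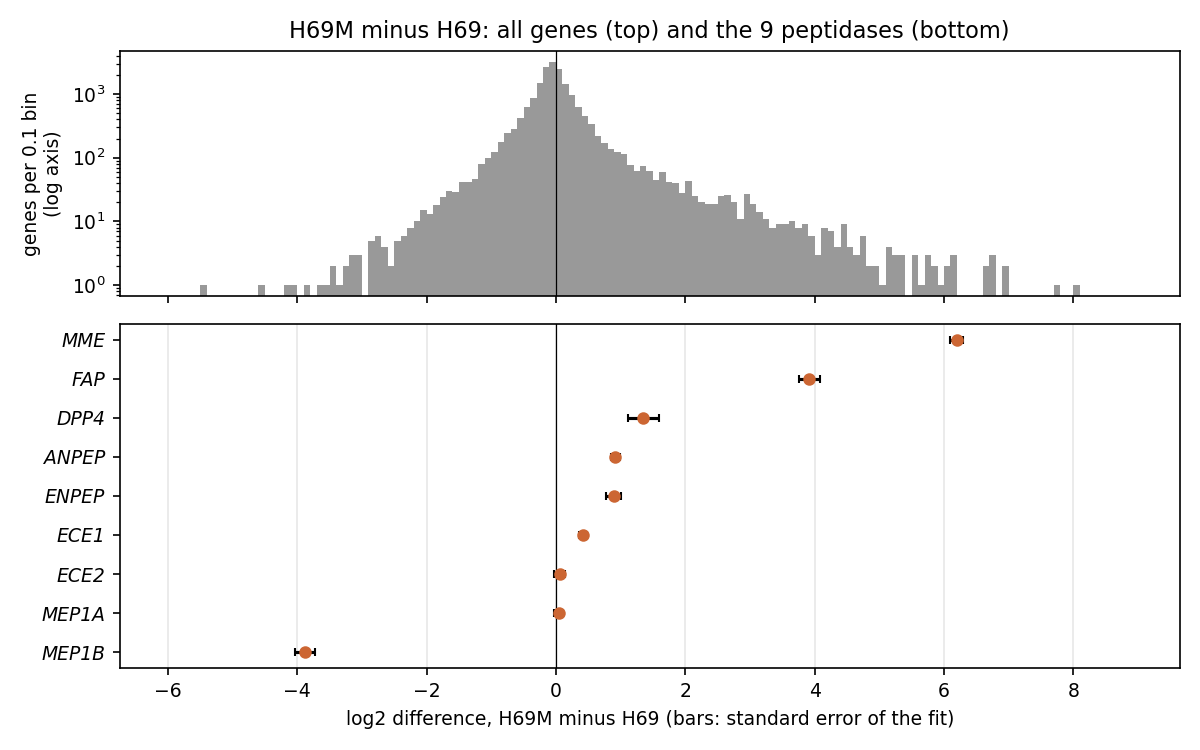
Top: number of genes per 0.1 bin of the log2 difference H69M minus H69 over 18404 genes, on a log axis. Bottom: the 9 peptidases on the same scale with the standard error of the fit. MME (6.20), FAP (3.92) and MEP1B (-3.88) lie in the thin tails of the distribution, and ECE2 and MEP1A lie at its centre.

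Several members are also antigens or enzymes of other cell types. Of 11 leukocyte markers, 0 rose and 4 fell by limma, adjusted or at an unadjusted p of 0.05: PTPRC (-0.35), CD14 (-0.31), CD79A (-0.22) and CD3E (-0.20). Only 2 fell with the eBayes trend, without H69 replicate 1 or without H69M replicate 2. PTPRC, the common leukocyte antigen, read 3.95 in H69 and 3.60 in H69M. Summed log2 values of the 11 markers were 53.9 to 54.7 on the H69 arrays and 52.3 to 52.9 on the H69M arrays. Of 12 brush border markers, 2 rose and 5 fell, with 1 that rose when H69 replicate 2 or 3 or H69M replicate 1 or 2 was left out. The endocytic receptor LRP2 fell by 1.64 and the cadherin CDH17 by 1.56, and USH1C (-0.81), SI (-0.50) and MYO1A (-0.36) also fell. CUBN rose by 0.65 and VIL1, the villin gene, by 0.46 (limma adjusted p = 0.0226). Summed values of the 12 brush border markers were 64.9 to 66.8 in H69 and 61.1 to 62.5 in H69M. For both marker lists the shares over all genes were 21.0% that rose and 23.2% that fell.

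Gene order was read from RefSeq, taking the 5 measured genes on each side of a member. DPP4 and FAP lie close together with GCG between them, the gene of the DPP4 substrates GLP-1 and glucagon. GCG did not pass (0.025, limma adjusted p = 0.801). On the far side of FAP, IFIH1 rose by 0.90 and GCA by 0.61. On the far side of DPP4 the transporter gene SLC4A10 fell by 1.22 (adjusted p = 1.9e-05), and farther out RBMS1 rose by 2.38. Not counting members, 5 neighbours of DPP4 rose and 2 fell, and 3 neighbours of FAP rose and 3 fell (limma). These counts overlap: PSMD14, IFIH1 and GCA, which rose, and SLC4A10 and KCNH7, which fell, are in both. Over all genes 21.0% rose and 23.2% fell. Genes that rose and genes that fell are thus mixed there, with more that rose around DPP4.

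Of the 10 neighbours of MEP1B, 5 fell and 0 rose (limma), against 23.2% and 21.0% of all genes, and all 10 log2 fold changes were below 0. About 57.0% of all genes were below 0 as well, and SLC25A52 (-0.003) and WBP11P1 (-0.0188) were barely so. At an unadjusted p of 0.05, 7 fell and 0 rose. Over the alternatives that kept all 10 genes, 8 to 10 of the fold changes were below 0, with 8 without H69 replicate 3. ASXL3 fell by 1.16, KLHL14 by 0.91, GAREM1 by 0.89, RNF138 by 0.52 and B4GALT6 by 0.39. None came near the log2 difference of MEP1B. MME had neighbours that hardly differed: 1 of 10 rose and 2 fell, with fold changes between -0.51 and 0.47. Of the 10 neighbours of ENPEP, 3 rose and 2 fell. Directly beside it ELOVL6 rose (0.77) and, on the other side, FAM241A fell (-0.39). Farther out EGF (1.54) and NEUROG2 (0.36) rose and ZGRF1 (-0.45) fell. Directly beside MEP1A the adhesion receptor gene ADGRF5 fell by 3.64 (adjusted p = 3.38e-07) and, farther away, RCAN2 by 1.11.

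**Figure D3:**
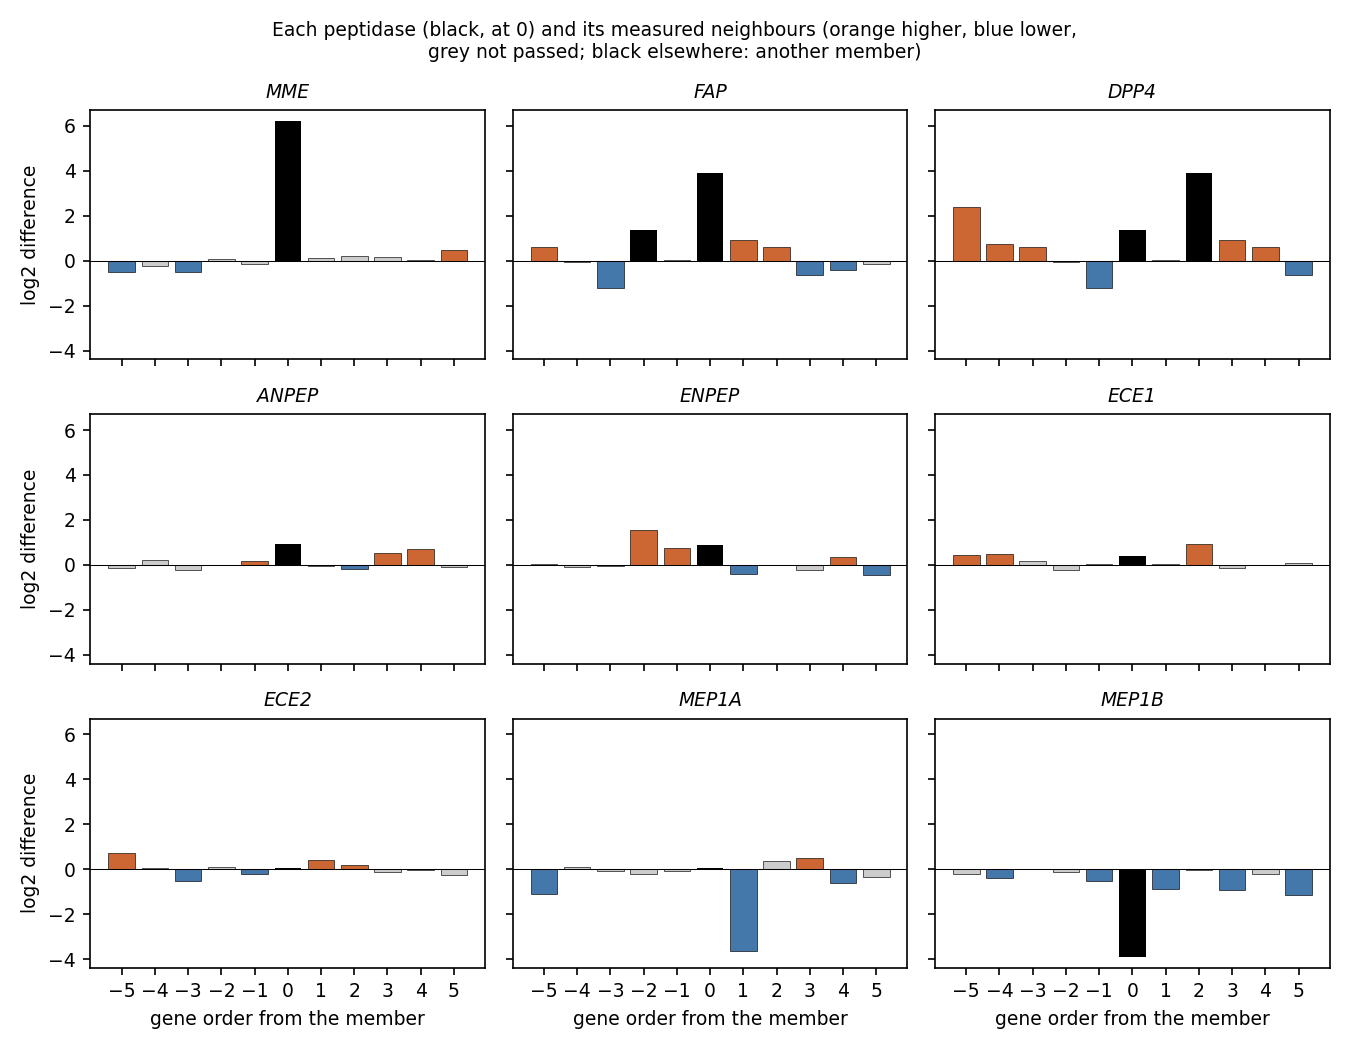
Log2 difference H69M minus H69 of each peptidase gene (black, at 0) and of the 5 measured genes on either side in RefSeq order; orange and blue bars passed the limma threshold as higher or lower, and grey ones did not. The bar of MME stands alone, and all 10 bars around MEP1B point down, some of them by almost nothing.

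Close relatives of the members were split. Of 22 measured genes of the same peptidase families, 7 rose and 5 fell (median 0.026), which became 4 and 7 with each array centred. Within the neprilysin family ECEL1 fell by 0.31 (limma adjusted p = 0.00746), and MMEL1 (-0.061), PHEX (-0.087) and KEL (0.082) did not pass. These 4, like DPP6, DPP8 and DPP9 below, were named after their values were seen. In the family of DPP4, DPP10, which lacks peptidase activity and serves potassium channels, read 6.44, 6.53 and 6.40 in H69 and 3.98, 3.91 and 4.01 in H69M. It fell by 2.49 with a standard error of 0.062 (adjusted p = 1.27e-07). DPP9, a cytosolic relative, rose by 0.53, PREP fell by 0.79, and DPP6 (-0.13) and DPP8 (0.11) did not pass. Among aminopeptidases, ERAP2 and ERAP1, which trim antigenic peptides in the endoplasmic reticulum, rose by 2.49 and 1.07 (adjusted p = 7.22e-06 and 6.04e-05). BMP1, a secreted relative of the meprins, rose by 1.10, or by 0.47 as the mean of its probe sets.

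Of 22 other peptide-degrading enzymes, 7 rose and 3 fell, or 5 and 9 with each array centred. Leaving out H69 replicate 3, or repeated quantile normalization, gave 5 that fell. CPM, a carboxypeptidase of the cell surface, read 5.19, 5.62 and 5.14 in H69 and 7.89, 7.97 and 7.77 in H69M, a rise of 2.56 (limma adjusted p = 2.73e-06). The secreted carboxypeptidase CPQ rose by 2.84, and CPXM1, of the family of CPM, by 0.91. CPD, another carboxypeptidase gene, fell by 0.41 (adjusted p = 0.000704) and was named after its value was seen. The lysosomal DPP7 fell by 0.78 and the cytosolic TPP2 by 0.45. ACE, which makes angiotensin II and breaks down bradykinin, did not pass (0.063), nor did IDE, the insulin-degrading enzyme (0.031), which was named after its value was seen.

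Of 11 measured genes of neuropeptide processing, 3 rose and 5 fell, or 3 and 7 with each array centred. They include SCG5 and PCSK1N, which do not encode enzymes, and SCG5 was among those that fell (-0.43). The convertase genes PCSK1 and PCSK2 were listed but were not among the measured genes. CPE, which trims precursors in secretory granules, fell by 1.09 (limma adjusted p = 7.52e-05), and QPCT, which closes peptide front ends, fell by 0.93. PAM, the amidating enzyme, did not pass at -0.14 (adjusted p = 0.087) but passed with each array centred (0.00974). The convertase genes PCSK5 and FURIN rose by 1.82 and 0.80, and the protease CTSL by 1.79. Other convertase genes did not follow: PCSK6 fell by 0.61 (limma adjusted p = 0.000191) and PCSK7 by 0.20 (0.0308), and PCSK4 did not pass (-0.12). PCSK4, PCSK6 and PCSK7 were named after their values were seen.

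Of 34 genes of substrate peptides, 4 rose and 6 fell, or 4 and 9 with each array centred, with a median of -0.034. GRP, the bombesin-like peptide that neprilysin destroys, read 9.88, 9.95 and 9.91 in H69 and 9.22, 9.03 and 8.28 in H69M. It fell by 1.07 with a standard error of 0.21 (limma adjusted p = 0.00423). NTS, the neurotensin precursor, read 8.81, 8.87 and 8.87 in H69 and 7.39, 7.20 and 6.56 in H69M, a fall of 1.80 (adjusted p = 0.000145). H69M replicate 3 was the lowest array for both. EDN1, the precursor on which ECE1 acts, read 4.94, 5.15 and 4.33 in H69 and 8.42, 8.46 and 9.08 in H69M. Its rise of 3.85 (adjusted p = 8.79e-06) went with a fall of 0.98 in EDN2. ADCYAP1, the PACAP precursor, rose by 2.34. Smaller changes, named after their values were seen, were rises of ADM (0.94) and GIP (0.34) and falls of PENK (0.75), TAC3 (0.54) and PDYN (0.42). TAC1, the substance P precursor, did not pass (-0.11).

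Of 44 measured genes of receptors of these peptides, 11 rose and 13 fell, or 10 and 21 with each array centred. They include RAMP1, RAMP2 and RAMP3, which encode partners of receptors and not receptors, and RAMP2 was among those that fell (-0.23). NPR3, the clearance receptor of natriuretic peptides, had the largest rise of the list, from 4.54, 4.42 and 4.36 to 9.70, 10.22 and 9.21 (log2 fold change 5.27, limma adjusted p = 1.1e-06). GRPR, the receptor of gastrin-releasing peptide, read 5.09, 4.91 and 5.19 in H69 and 7.09, 7.26 and 7.13 in H69M, a rise of 2.10 while its ligand gene fell. The bradykinin receptor BDKRB1 rose by 2.50 and BDKRB2 fell by 0.30. AGTR1, the angiotensin II receptor, rose by 1.71. EDNRB, an endothelin receptor, rose by 0.42 but was dim in both lines (3.33 in H69 and 3.75 in H69M). The endothelin receptor gene EDNRA was listed but was not among the measured genes. The somatostatin receptor SSTR2 fell by 1.69. The passing receptors next in size were named after their values were seen: OXTR (1.56), CCKAR (1.46), TACR1 (0.84) and CCKBR (0.69) rose, and CXCR4 (-1.09), ADCYAP1R1 (-1.01), SSTR1 (-0.76), NPR1 (-0.62) and OPRD1 (-0.57) fell. ADCYAP1R1 is the receptor of the peptide from ADCYAP1, the gene that rose.

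**Figure D4:**
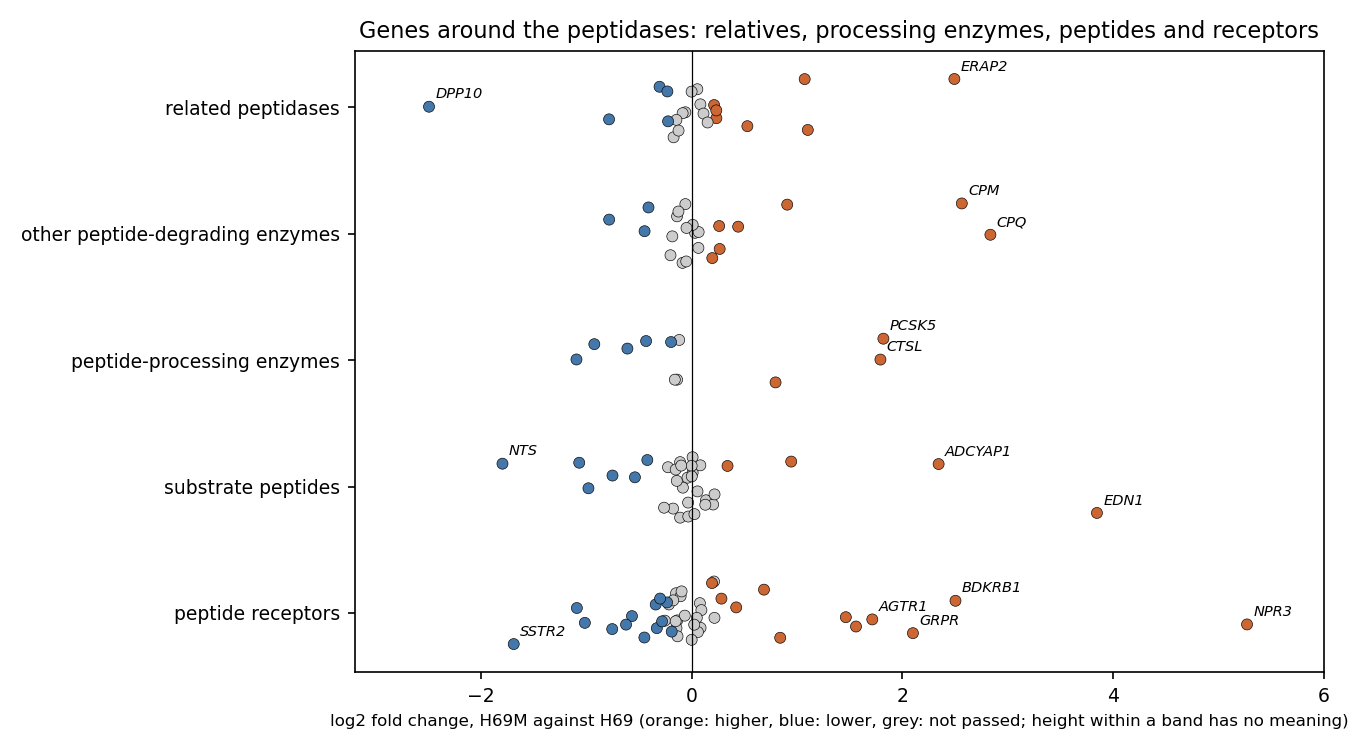
Log2 fold change, H69M against H69, of each measured gene of 5 lists around the peptidases; orange and blue points passed the limma threshold as higher or lower, grey ones did not, and height within a band has no meaning. Most points lie near 0, with NPR3 (5.27) and EDN1 (3.85) farthest to the right and DPP10 (-2.49) farthest to the left.

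Membrane and binding proteins were looked at last. ADA, adenosine deaminase, which DPP4 holds at the surface, did not pass (0.13, limma adjusted p = 0.378). PLAUR, the urokinase receptor that associates with FAP, read 7.07, 7.15 and 6.96 in H69 and 9.46, 9.53 and 9.78 in H69M, a rise of 2.53 (adjusted p = 7.43e-07). CAV1, the membrane coat protein caveolin-1, read 4.72, 4.62 and 4.44 in H69 and 12.59, 12.69 and 12.66 in H69M, a rise of 8.05 (adjusted p = 4.96e-09).

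The genes whose pattern over the 6 arrays was most like that of a member were found by the root-mean-square difference between values centred per gene. For MME they were FSTL1 (0.136), FBN1 (0.156), DAB2 (0.213), MYOF (0.213) and IL6ST (0.254). For FAP they were NTN4 (0.113), TGFB1 (0.125), LAMA4 (0.125), NABP1 (0.136) and CDH3 (0.143). Those most like MEP1B were CDH20 (0.137), RXRG (0.161), ADGRF5 (0.164), POF1B (0.236) and EYS (0.267), so the gene directly beside MEP1A was among them. For DPP4 the nearest were ZNF676 (0.137), ARMCX2 (0.169), GPX3 (0.203), SLC66A1LP (0.206) and KIAA1107 (0.212). With 2 groups of 3 arrays this measure mostly reflects the size of the difference between the lines.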

How the data were processed

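Biotin-labelled targets from total RNA of H69 and H69M were read on Affymetrix whole-transcript arrays, 3 per line. The authors deposited 1 log2 value per probe set and array. RMA and limma are named, with no version, in the submitters' processing notes. The genome build is not given in the sources used here. RMA values carry no detection call. Depth has no meaning for arrays; their number limits the precision, and the median standard error over genes was 0.075.

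Of 32321 probe sets, the platform annotation gave 1 gene symbol to 19158, several to 1388 and none to 11775. Each of 18404 genes was represented by its brightest probe set on average. H69M was compared with H69 by limma 3.58.1 in R 4.3.3 (lmFit, eBayes, group as the only term, two-sided), with Benjamini-Hochberg adjustment over all genes and a threshold of 0.05. The code was tested on simulated data. Python 3.11.15 with pandas 2.3.3 was used for the rest.

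Members and lists were chosen with earlier results of these data known. The genes named were all members, up to 5 passing genes with the largest change in each list of enzymes, peptides or receptors, 14 measured fixed genes, neighbours past the threshold with a log2 fold change of at least 1 in size, and the 5 most alike genes for 4 members; others are marked as named later. Neighbours of smaller change and the markers of other cell types were also named after their values were seen. Alternatives were the replicate block, centring, repeated quantile normalization, a level filter at the 25th percentile, eBayes trend, array weights, averaging probe sets, and leaving out each array.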

Additional observations from a re-analysis of the deposited data

How the results depend on the processing

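Over 13 alternatives, 6 members were called higher and 1 lower in each, except with genes below the 25th percentile of level left out, where 6 members were tested and 4 were called higher and 1 lower. These calls refit the contrast that was known when the members were chosen, so they are a description and lend the members no support. The log2 differences of the members moved by less than the spread between arrays in 111 of 114 values. That count includes settings that could not move them: the replicate block, the eBayes trend, averaging probe sets and the level filter. Only centring, repeated quantile normalization, array weights and leaving out arrays could change these differences. The exceptions came with each array centred on its median: ANPEP 0.83, ECE1 0.33 and MEP1A -0.049. ECE2 turned to -0.0345 there, and lay between -0.015 and 0.12 as single arrays were left out, and MEP1A between -0.010 and 0.083. The count of all genes called lower was 6827 with centring and 5478 with repeated quantile normalization, against 4274. Centring takes the median of all genes from -0.041 to -0.13, so the whole distribution shifts down. Leaving out single arrays gave 3318 to 3628 genes higher and 3521 to 4450 lower. With the replicate block 3617 genes were higher and 4021 lower. Same-numbered arrays of the lines deviated together with r of only 0.0072 to 0.021, and no array correlated best with its own number. The numbers thus showed no shared deviation. Whether same-numbered arrays were grown or processed together cannot be told from these values. For 114 other genes, 1445 of 1460 values kept their side of the threshold and 0 reversed. These were most of the genes named and the leading markers of other cell types. CD79A lost its call in 6 (adjusted p 0.0609 to 0.11) and CD3E in 5 (0.0572 to 0.0932) of the alternatives, and PAM gained one in 3 (0.00974 to 0.0317) and POSTN in 1 (0.0128). Some members are dim in 1 or both lines, where array signal close to background limits how far a fold can be read. The same holds for other named genes, among them EDNRB, PDYN, GIP and CUBN, which are dim in both lines.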

Other observations

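The H69M array nearest to the H69 mean differed between the members. It was replicate 1 for MME, ANPEP and MEP1B, replicate 3 for FAP, DPP4, ENPEP and MEP1A, and replicate 2 for ECE1 and ECE2. Over all genes replicate 1 was the nearest for 46.8%, replicate 2 for 24.1% and replicate 3 for 29.0%. These are values of single arrays, and replicates have no order.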
